A study of Rattus norvegicus with 12 samples.

Results

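The genes of the rat mitochondrial chromosome were described in primary oligodendrocyte precursor cells (OPCs) exposed to inflammatory cytokines and to galinex. All rows that the count tables place on chromosome MT were taken, 37 of 30562 annotated rows. The rule uses the chromosome alone and no measured value. The rows were ordered by start and identified from order, length and strand as 2 ribosomal RNAs, 22 transfer RNAs and 13 protein-coding genes.

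RNA sequencing covered 12 libraries of OPCs shaken from mixed glial cultures of wild-type Sprague-Dawley rat cortex. The cultures were prepared from male and female pups of postnatal days 0 to 2. Whether each culture held both sexes is not stated. The 4 groups held 3 libraries each, and all cells were switched to differentiating medium when treatment began. CTL cells received medium without cytokines and the vehicle DMSO. GAL cells received 10 nM galinex, an agonist of the G protein-coupled receptor GPR17, also without cytokines. CTK-2 cells received the cytokines IFN-γ, IL-1β and TNF-α, each at 2 ng/mL, followed by DMSO. CTK2+GAL cells received the same cytokines and, 6 h later, 10 nM galinex. RNA was taken 24 h after galinex or DMSO. The labels do not say whether replicates were independent cultures, so p-values measure the spread between these samples, which may be technical.

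The mitochondrial genome is a small circle transcribed from both strands into long precursors that are split at the transfer RNAs lying between the other genes. Its messages encode core subunits of respiratory complexes I, III and IV and of the ATP synthase, complex V, while complex II is encoded wholly in the nucleus. Its ribosomal and transfer RNAs serve the translation of these messages, and oligodendrocytes are known for the high energy demand of building myelin.

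Depth is given as counts of read pairs assigned to genes. The CTL libraries held 5836987, 5207182 and 6169733 counts, and the GAL libraries 2600797, 6064182 and 5908813. The CTK-2 libraries held 4718825, 5475929 and 5329374 counts, and the CTK2+GAL libraries 5080780, 5562951 and 8978185. GAL 1 was thus the smallest and CTK2+GAL 3 the largest library, with a median of 5519440. Of these counts, 63251 in GAL 1 and 273981 in CTK2+GAL 3 lay on MT rows. A few libraries stood apart. CTL 3 and GAL 3 had a higher mean log2(CPM + 1) over the 1538 nuclear genes raised in CTK-2 versus CTL, 3.29 and 3.25, than the other CTL and GAL libraries, which lay between 2.90 and 2.93. All CTK-2 and CTK2+GAL libraries lay between 4.48 and 4.54. Because CTL and CTK-2 libraries chose these genes, the values are a description. GAL 1 had the lowest depth and the composition farthest from the other libraries in several MT rows.

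The MT rows took 2.82% of all counts on average over the 12 libraries, with an SD of 0.260. The share was 2.68%, 3.11% and 2.51% in the CTL libraries. In GAL it was 2.43%, 3.04% and 3.08%. The ranges of these groups overlapped over most of their length. The share was 2.60%, 3.01% and 2.69% in CTK-2, and 2.56%, 3.04% and 3.05% in CTK2+GAL. The group means were 2.77 ± 0.311 in CTL, 2.85 ± 0.365 in GAL, 2.77 ± 0.218 in CTK-2 and 2.88 ± 0.280 in CTK2+GAL (%, SD, n = 3). The difference between libraries with and without cytokines was 0.01 percentage points, and that between libraries with and without galinex was 0.10 percentage points, both smaller than the pooled SD within groups of 0.298. With 1 library left out these differences ran from -0.09 to 0.10 and from 0.04 to 0.21, and without CTL 3 and GAL 3 together that with galinex was -0.02. By replicate number, the share was 2.43% to 2.68% in the 4 libraries numbered 1, 3.01% to 3.11% in those numbered 2 and 2.51% to 3.08% in those numbered 3. The libraries numbered 1 and 2 did not overlap, and what the numbers stand for is not stated in the labels. The SD within groups includes this spread. In a replicate block, which pairs libraries of the same number, the exact permutation p was 0.8125 with cytokines (adjusted 0.955). It was 0.469 with galinex (adjusted 0.703). Counting error was far smaller than this spread, with 95% Wilson intervals of at most ± 0.0187 percentage points. These intervals cover counting error only. In bulk samples, fewer mitochondria-rich cells and less mitochondrial RNA per cell cannot be told apart.

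**Figure D1:**
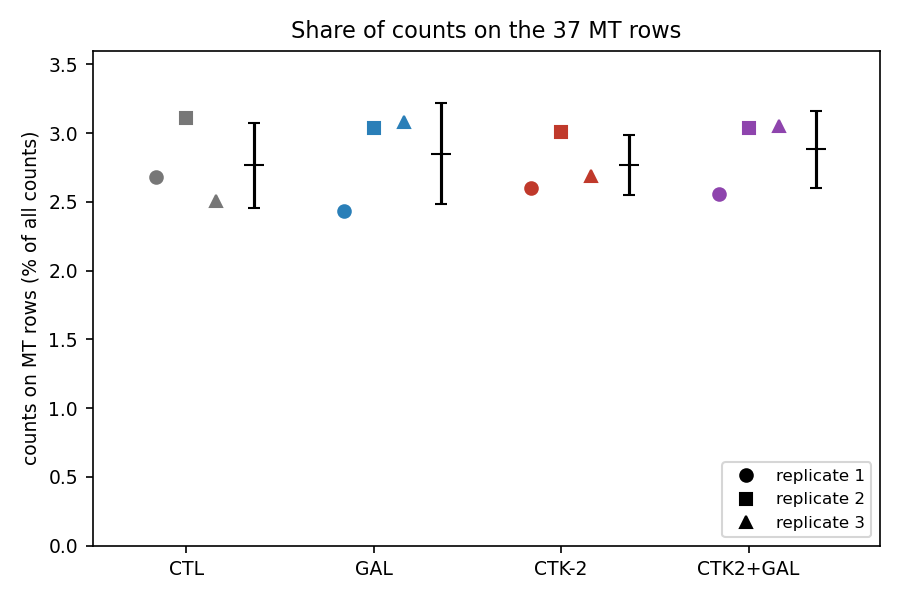
Share of all counts on the 37 MT rows in each library (vertical axis, percent), by group, with symbols for the replicate number and the mean with SD (n = 3) at the right of each group. The 4 groups overlap, with means between 2.77% and 2.88%.

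The rows covered the chromosome from base 1 to base 15415 of mRatBN7.2 almost without gaps. For 14 rows the next row began at the very next base. On the same strand, mt-Atp8 shared 43 bases with mt-Atp6, mt-Nd4l shared 7 with mt-Nd4, mt-Atp6 shared 1 with mt-Co3, and mt-Ts2 shared 1 with mt-Tl2. No pair was assigned to more than 1 row, so pairs that touched several rows of a strand could be left out. This holds whether the rows shared bases or only adjoined. The levels of short rows are therefore uncertain, such as those of mt-Atp8 (204 bases), mt-Nd4l (297 bases), mt-Nd3 (348 bases) and the transfer RNAs. Of the 13 protein-coding rows, 9 had a length that is a multiple of 3, and mt-Nd1, mt-Nd2, mt-Co3 and mt-Nd4 did not. Stop codons of some mitochondrial messages are known to be completed by the poly(A) tail. No sequence of the chromosome was used here.

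In all, 18 of the 37 rows reached an average of at least 5 counts a library. They were both ribosomal RNAs, all 13 protein-coding genes and 3 transfer RNAs. The other 19 rows were transfer RNAs and were not tested in the fit with this filter. Among the fits, the 17 of them with any count entered only the alternative without a filter on low counts.

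The messages of complex IV, cytochrome c oxidase, were the most abundant. Levels between genes were compared as pairs per kb per 100000 MT pairs of the same library. mt-Co1 (bases 5323 to 6867), the catalytic subunit, had 20420 ± 650 (SD, n = 12) on this scale and was the highest row in the mean. mt-Co3 (8599 to 9382) followed with 15569 ± 436, and mt-Co2 (7006 to 7689), the subunit that takes electrons from cytochrome c, had 9602 ± 291. mt-Co1 lay above mt-Co3, and mt-Co3 above the next row, in 12 of 12 libraries. Together the 3 rows held 50.3% of MT counts.

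mt-Cyb (14136 to 15278), cytochrome b of complex III, had 8846 ± 417 pairs per kb on the same scale. It lay below mt-Co2 in 11 of 12 libraries and above mt-Atp6 in 12 of 12. mt-Atp6 (7919 to 8599), part of the proton channel of complex V, had 7916 ± 304. Its partner mt-Atp8 (7758 to 7961), read from the same message, had 1027 ± 127, the lowest level of the protein-coding rows. mt-Co1 was 19.9-fold above mt-Atp8 per kb as counted. The mt-Atp8 row has 204 bases and shares 43 of them with mt-Atp6, so its level is uncertain. The part of the counting in its low level and in this ratio was not tested.

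The 7 subunits of complex I, NADH dehydrogenase, were all less abundant per kb than mt-Atp6. They ranged from 4128 ± 185 for mt-Nd1 (2740 to 3694) down to 1448 ± 144 for mt-Nd6 (13543 to 14061). mt-Nd4 (10160 to 11537), at 3190 ± 237, and mt-Nd2 (3904 to 4942), at 3112 ± 246, were not separated, since mt-Nd4 was higher in 6 of 12 libraries. mt-Nd3 (9451 to 9798) had 2528 ± 197 and mt-Nd5 (11736 to 13565) 1845 ± 88.6. mt-Nd4l (9870 to 10166) had 1588 ± 231 and lay above mt-Nd6 in 9 of 12 libraries. The 7 rows held 17.1% of MT counts although they make up 6366 of the 11407 protein-coding bases.

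The ribosomal RNAs were very unequal. mt-Rnr2 (1094 to 2664), the 16S RNA of the large ribosomal subunit, had 10395 ± 654 pairs per kb per 100000 MT pairs, close to mt-Co2, above which it lay in 9 of 12 libraries. mt-Rnr1 (68 to 1025), the 12S RNA of the small subunit, had 514 ± 92.7, below every protein-coding row in the mean. The 16S level was 20.2-fold the 12S level although both genes lie in the same precursor, separated only by mt-Tv. Which library kit was used is not stated in the labels or file headers. Its part in the levels of ribosomal RNAs was not tested. Of the 15 ribosomal RNA and protein-coding rows, mt-Rnr1 also varied most relative to its mean, with a coefficient of variation of 18.1% over the libraries, against 2.80% for mt-Co3.

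**Figure D2:**
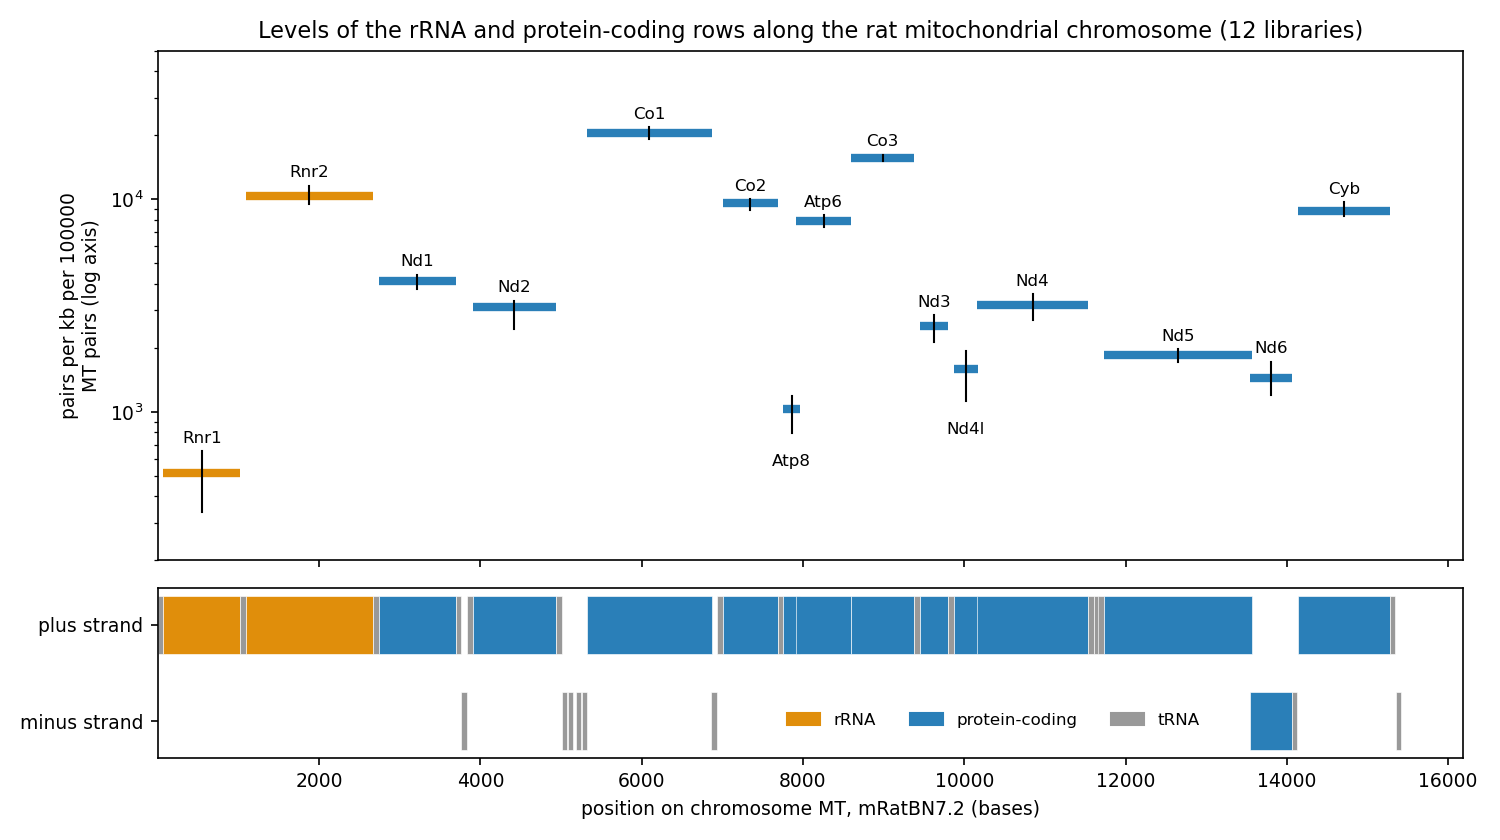
Mean level of the 15 ribosomal RNA and protein-coding rows along chromosome MT (upper panel, pairs per kb per 100000 MT pairs, log axis; thin vertical lines span the lowest to the highest of 12 libraries) above the 37 rows by strand (lower panel). mt-Co1 is the highest at 20420 and mt-Rnr1 the lowest at 514.

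The transfer RNAs held 1704 of 1906611 MT counts over all libraries, 0.0913% of MT counts on average. Intact transfer RNAs are short and folded, and these rows are 60 to 75 bases long. The part of the library kit, which is not stated, in their levels was not tested. Per kb, the protein-coding rows together lay 122-fold above the transfer RNA rows. Any loss of pairs reaching into adjoining rows was not measured in this ratio. mt-Tm (tRNA-Met, bases 3835 to 3903), mt-Ts1 (tRNA-Ser(UCN), 6865 to 6933) and mt-Tp (tRNA-Pro, 15348 to 15415) reached a mean count of at least 5, and they held 87.0% of all transfer RNA counts.

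mt-Tm, which lies directly before mt-Nd2, had a mean count of 80.8. Its counts were 85, 102 and 102 in CTL, 43, 76 and 95 in GAL, 63, 85 and 76 in CTK-2, and 58, 79 and 106 in CTK2+GAL. mt-Ts1 had a mean count of 31.2, with counts from 12 to 47, and mt-Tp had a mean count of 11.4, with counts from 5 to 20. mt-Tm had counts in every library and the highest level of the transfer RNAs, 762 ± 135 pairs per kb on the scale above, between mt-Rnr1 and mt-Atp8 in the mean.

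Of the 19 transfer RNA rows below a mean count of 5, mt-Tl1 (tRNA-Leu(UUR)) came closest with 4.33. It was followed by mt-Tq with 3.25, mt-Tw with 3.00, mt-Te with 1.67 and mt-Td with 1. A further 12 rows had a mean count above 0 and below 1, namely mt-Tv, mt-Ti, mt-Ta, mt-Tn, mt-Tc, mt-Ty, mt-Tk, mt-Tg, mt-Tr, mt-Th, mt-Ts2 and mt-Tt. mt-Tf (tRNA-Phe) and mt-Tl2 (tRNA-Leu(CUN)) had 0 counts in all libraries. With the libraries pooled, this allows a share of up to 0.000157% of the assigned MT counts. In GAL 1 alone, the library with the fewest MT counts, it allows up to 0.00474%. Both rows adjoin other rows, and any loss of pairs reaching into those was not measured. Levels of these 19 rows are not compared one by one between groups here, because the depth does not allow it.

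The strands contributed very unequally. The 28 rows on the plus strand of the reference, transcribed from the heavy strand promoter, include both ribosomal RNAs, 12 of the 13 messages and 14 transfer RNAs. The 9 rows on the minus strand are mt-Nd6 and 8 transfer RNAs. The minus-strand rows held 15002 counts in all, 0.783% ± 0.0745 of MT counts (SD, n = 12).

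The minus-strand share was 0.819%, 0.657% and 0.794% of MT counts in CTL. It was 0.664%, 0.858% and 0.773% in GAL. All groups overlapped, since the share was 0.771%, 0.839% and 0.779% in CTK-2 and 0.921%, 0.742% and 0.775% in CTK2+GAL. mt-Nd6 held between 94.0% and 97.0% of the minus-strand counts in each library. Per kb, the 12 plus-strand messages together lay 5.27 ± 0.529 times above mt-Nd6 (SD, n = 12). RNA antisense to a gene was not counted, because the counting was strand-specific, so these values compare annotated genes and not whole strands.

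The first question of the design is what the cytokines changed in the absence of galinex. In CTK-2 versus CTL, no MT row passed the test with all 12 libraries, while many nuclear genes did. mt-Co1 had 8436, 9532 and 8045 CPM (counts in proportion to a library size adjusted by TMM) in CTL and 8265, 9258 and 8294 CPM in CTK-2. The groups overlapped, and mt-Co1 differed by -0.01 on the log2 scale, with a standard error of 0.070 (adjusted p = 0.922, quasi-likelihood test of edgeR, Benjamini-Hochberg adjustment over all genes). mt-Cyb had 2873, 3557 and 2566 CPM in CTL and 2510, 2845 and 2652 CPM in CTK-2, a log2 fold change of -0.17 with a standard error of 0.10. mt-Rnr1 had 134, 183 and 155 CPM in CTL and 135, 138 and 117 CPM in CTK-2. Its log2 fold change of -0.27 (standard error 0.13) was the lowest of the 15 ribosomal RNA and protein-coding rows, and that of mt-Nd4l, 0.20 (standard error 0.16), was the highest. Without CTL 2, the lowest of the 15 was -0.15 and the highest 0.30.

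With edgeR, 0 of the 18 tested MT rows were called, against 17.3% of all 13348 genes tested. A call required a change of at least 0.59 on the log2 scale in either direction, besides an adjusted p no higher than 0.05. Without the fold change threshold 0 MT rows passed either, against 39.1% of all genes. At an unadjusted p of at most 0.05 there were 0, against 46.7% of all genes, and DESeq2 called 0, against 15.8%. At the same unadjusted p there were 2 of 18 in the replicate block, against 47.8%, and 2 with the 2 groups alone, against 45.4%. The median log2 fold change was -0.01 over the 18 MT rows and 0.00 over all genes. The 95% intervals of all 15 ribosomal RNA and protein-coding rows lay inside the fold change threshold, between -0.55 and 0.53. mt-Atp8 was the 1 MT row whose CTK-2 libraries all lay above the CTL libraries, where 25.2% of all genes did so, and 0 MT rows lay below, where 23.8% of all genes did.

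With galinex present in both groups, the same contrast is CTK2+GAL versus GAL. Here 0 of the 18 MT rows were called by edgeR, against 17.4% of all genes, and 0 by DESeq2, against 15.8%, and 0 passed without the fold change threshold, against 39.6%. At an unadjusted p of at most 0.05 there was 1, mt-Atp8, against 47.0% of all genes. It had 39.9, 55.5 and 67.1 CPM in GAL and 59.6, 72.7 and 69.8 CPM in CTK2+GAL, so the groups overlapped. The difference was 0.26 on the log2 scale, with a standard error of 0.12 (adjusted p = 0.0835, quasi-likelihood test of edgeR, Benjamini-Hochberg adjustment over all genes). In the replicate block, 2 MT rows passed this test without the fold change threshold, against 40.5% of all genes. They were mt-Atp8 (log2 fold change 0.28, adjusted p = 0.0317) and mt-Nd4l (0.31, adjusted p = 0.0311).

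Over the 18 MT rows the median log2 fold change in CTK2+GAL versus GAL was -0.04, beside 0.01 over all genes. The 95% interval of mt-Nd4l reached 0.62, past the fold change threshold, and those of the other 14 ribosomal RNA and protein-coding rows stayed inside it. For 0 MT rows did the libraries of the 2 groups separate, where 25.5% of all genes lay above and 24.0% below.

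The count without the fold change threshold depended on single libraries. In CTK-2 versus CTL it was 1 without CTL 1, mt-Rnr1 with a log2 fold change of -0.37, and 1 without CTL 3, mt-Cyb with -0.27, where 34.3% and 40.1% of all genes passed. In CTK2+GAL versus GAL it was 1 without CTK2+GAL 1 and 3 without GAL 3, against 34.5% and 36.9% of all genes. Without GAL 3, mt-Atp8 and mt-Nd4l had log2 fold changes of 0.44 and mt-Nd3 one of 0.33. Without GAL 1, the highest log2 fold change of the 15 ribosomal RNA and protein-coding rows was 0.14, against 0.29 with all libraries. Without CTL 3 and GAL 3 together, a choice made after seeing the data, 4 MT rows passed in CTK-2 versus CTL, all of them lower, against 41.8% of all genes. They were mt-Rnr1, mt-Nd1, mt-Nd4 and mt-Cyb, with log2 fold changes from -0.27 to -0.24. In CTK2+GAL versus GAL, 3 passed, against 39.5%, again mt-Atp8, mt-Nd3 and mt-Nd4l, with log2 fold changes from 0.33 to 0.44. None of these rows reached the fold change threshold of 0.59, and as shares of the 18 rows these counts lie below the shares of all genes.

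The next question is whether galinex changed MT levels. In GAL versus CTL, mt-Co1 had 8297, 9674 and 9698 CPM in GAL, beside the CTL values given above. The log2 fold change was 0.09 (standard error 0.070). mt-Nd2 had 623, 1025 and 1056 CPM in GAL and 885, 1006 and 747 CPM in CTL, the low value belonging to GAL 1. In edgeR 0 of the 18 MT rows were called, against 0% of all genes, and DESeq2 called 0, also against 0%. At an unadjusted p of at most 0.05 there were 0, against 4.30%. The median log2 fold change was 0.03 over the MT rows and 0.00 over all genes. Single libraries moved the median over the MT rows, which was 0.15 without GAL 1, 0.12 without CTL 2, -0.03 without GAL 2 and -0.05 without GAL 3. Without GAL 1, 6 of the 18 rows had an unadjusted p of at most 0.05, against 5.45% of all genes, and 0 were called. This share lies above that of all genes, but the MT rows move together between libraries, so the 6 are not independent.

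Galinex after cytokines gave a similar count. In CTK2+GAL versus CTK-2, 0 of the 18 MT rows were called by edgeR, against 0% of all genes, and 0 by DESeq2, also against 0%. At an unadjusted p of at most 0.05 there were 0, against 4.08%. There were 2 of 18 in the replicate block, against 4.70%, 3 with the 2 groups alone, against 6.71%, and 2 without CTK-2 2, against 4.72%. GAL versus CTL had 0 in the replicate block, against 4.73%, and 0 with the 2 groups alone, against 2.77%. With no filter on low counts, GAL versus CTL had 5 of 35 MT rows, against 3.86%, and CTK2+GAL versus CTK-2 had 3 of 35, against 3.65%. Both shares lie above those of all genes, with 0 rows called. With the filter, the median log2 fold change over the MT rows in CTK2+GAL versus CTK-2 was 0.07, beside 0.00 over all genes. The highest log2 fold change was that of mt-Nd3, a small complex I subunit, which had 213, 268 and 216 CPM in CTK-2 and 232, 298 and 291 CPM in CTK2+GAL. Its log2 fold change was 0.23 (standard error 0.13). All 95% intervals of the 15 rows lay inside the fold change threshold in both galinex comparisons, the highest reaching 0.55.

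No MT row separated the libraries in either galinex comparison. Among all genes, 4.09% lay above and 4.23% below in GAL versus CTL, and 5.72% above and 5.77% below in CTK2+GAL versus CTK-2. The interaction asks whether galinex acted differently with and without cytokines. In edgeR it called 0 of the 18 MT rows, against 0% of all genes, and DESeq2 called 0, also against 0%. At an unadjusted p of at most 0.05 there were 0, against 2.82%. The 95% interval of mt-Nd3 reached 0.64 in the interaction, and those of the other 14 ribosomal RNA and protein-coding rows stayed inside the fold change threshold. Without CTL 3 and GAL 3 together, 0 MT rows were called with the fold change threshold in each comparison that uses them. The shares of all genes were 19.2% in CTK-2 versus CTL, 18.7% in CTK2+GAL versus GAL, 0.0300% in GAL versus CTL and 0.0451% in the interaction. In GAL versus CTL, 2 MT rows then had an unadjusted p of at most 0.05, against 5.22%. The medians over the MT rows were -0.08 in CTK-2 versus CTL, -0.11 in GAL versus CTL and 0.06 in CTK2+GAL versus GAL. In the interaction the median was then 0.18, against 0.05 with all libraries, with 15 of the 15 ribosomal RNA and protein-coding rows above 0 and 3 of the 18 MT rows at an unadjusted p of at most 0.05, against 3.92% of all genes. These comparisons share libraries with each other and are not independent.

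The 3 tested transfer RNAs have few counts and wider intervals. Those of mt-Ts1 and mt-Tp passed the fold change threshold in 5 of 5 contrasts, and that of mt-Tm in 1, CTK2+GAL versus GAL. The log2 fold change of mt-Ts1 was -0.45 in CTK2+GAL versus CTK-2 (95% interval -1.08 to 0.18) and -0.47 in CTK2+GAL versus GAL (-1.11 to 0.16). For mt-Tp it was 0.28 in GAL versus CTL (-0.45 to 1.01) and -0.46 in the interaction (-1.49 to 0.57). All these intervals include 0.

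**Figure D3:**
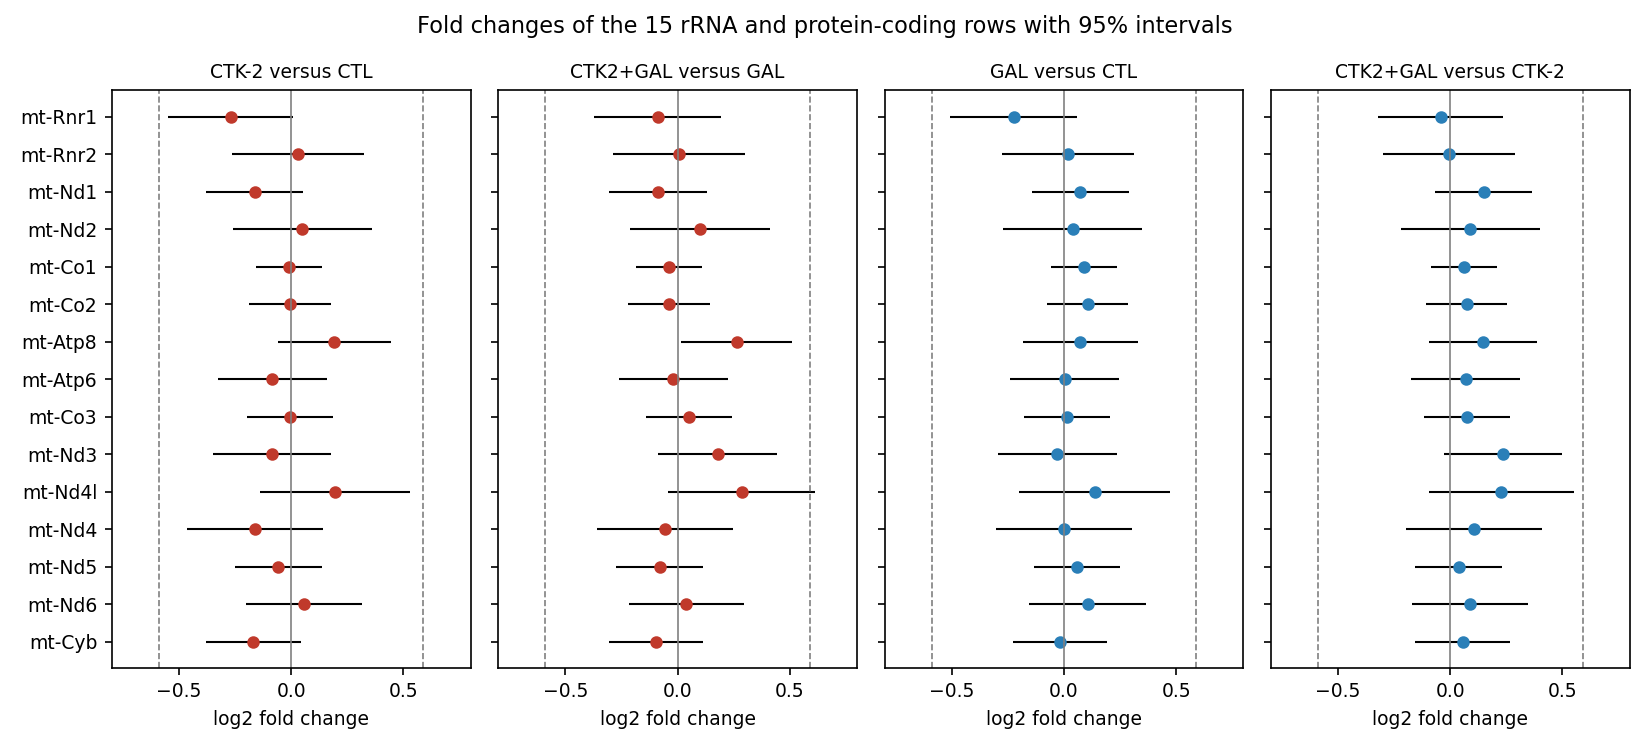
Log2 fold changes (horizontal axis) of the 15 ribosomal RNA and protein-coding rows in chromosome order, with 95% intervals from the edgeR fit, for the cytokine comparisons (red) and the galinex comparisons (blue). Dashed lines mark the fold change threshold of 0.59 in both directions, and the interval of mt-Nd4l in CTK2+GAL versus GAL crosses it.

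The MT rows varied more between replicates, in the median, than nuclear genes with at least the mean count of mt-Atp8, a set not matched to them in abundance. The SD of log2 CPM within groups had a median of 0.21 over the 15 ribosomal RNA and protein-coding rows. Over 12922 of the genes tested it was 0.15, and over the 3918 nuclear genes of that set it was 0.08. The rows moved together between libraries. In each of the 12 libraries, at least 12 of the 15 rows lay on the same side of their group means, from 15 of 15 below in CTL 3 to 15 of 15 above in GAL 3 and in CTK-2 2. In GAL 1, 14 of 15 lay below, with a median deviation of -0.26.

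As shares of MT counts, 14 of the 15 rows varied less, while mt-Rnr1 varied more. The median SD of the log2 share within groups was 0.09. It was lowest for mt-Nd1, at 0.03, and highest for mt-Rnr1, at 0.28, beside 0.23 as log2 CPM. The share of MT counts on mt-Rnr1 was 0.498%, 0.568% and 0.619% in CTL and 0.628%, 0.325% and 0.490% in GAL. It was 0.528%, 0.461% and 0.444% in CTK-2 and 0.506%, 0.461% and 0.378% in CTK2+GAL. GAL 1 had the highest and GAL 2 the lowest value of all libraries.

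GAL 1 also had the highest share of mt-Co1, 33.9% of MT counts against 29.7% to 32.3% in the other libraries. Its shares of mt-Nd2, mt-Nd4, mt-Nd4l and mt-Atp8 were the lowest, with 2.54% for mt-Nd2 and 3.71% for mt-Nd4. This library had the lowest depth, and the part of depth in these shares was not tested.

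When MT counts were the reference, 3 of the 15 rows separated all 6 libraries with cytokines from all 6 without. The share of mt-Atp8 lay above, 1 row where 11.7% of all genes did so on the same scale. Its share was 0.199%, 0.175% and 0.204% in CTL and 0.163%, 0.180% and 0.215% in GAL, and 0.221%, 0.219% and 0.231% in CTK-2 and 0.236%, 0.243% and 0.230% in CTK2+GAL. The shares of mt-Nd1 and mt-Cyb lay below, 2 rows where 8.21% of all genes did so. For mt-Nd1 the share was 3.98% to 4.23% without cytokines and 3.62% to 3.94% with them. Counts of this size over 15 rows are near the background.

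With galinex, 0 of the 15 rows separated the libraries in this way, where 0.0300% of all genes lay above and 0.00749% below.

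Sums over classes of MT rows passed no adjusted test. The ribosomal RNA share of MT counts was 16.7 ± 1.82 in CTL, 16.4 ± 0.520 in GAL, 17.5 ± 0.426 in CTK-2 and 16.7 ± 0.915 in CTK2+GAL (%, SD, n = 3). The highest library was CTL 2 with 18.8%. The transfer RNA share was 0.0901%, 0.102% and 0.11% in CTL and 0.104%, 0.0868% and 0.0878% in GAL. It was 0.0856%, 0.0897% and 0.108% in CTK-2 and 0.0815%, 0.0764% and 0.0723% in CTK2+GAL, so the 3 CTK2+GAL libraries lay below all others.

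Between libraries with and without galinex the transfer RNA share differed by -0.0128 percentage points, with p = 0.04 in a two-sided exact permutation test within the cytokine strata and 0.42 after Benjamini-Hochberg adjustment over 12 tests of 6 such measures. Between libraries with and without cytokines it differed by -0.0113 percentage points (exact permutation p = 0.07, adjusted 0.42). In the replicate block the exact p was 0.125 with galinex (adjusted 0.703) and 0.0312 with cytokines (adjusted 0.375). These shares rest on 66 to 198 counts a library, with 95% Wilson intervals of up to ± 0.0253 percentage points. The log2 ratio of complex I to complex IV counts was -1.53 ± 0.0648 in CTL, -1.57 ± 0.150 in GAL, -1.60 ± 0.0419 in CTK-2 and -1.55 ± 0.0218 in CTK2+GAL (SD, n = 3). The GAL value depends on GAL 1, at -1.74 against -1.52 and -1.46 in GAL 2 and GAL 3. The difference with cytokines was -0.02 (exact permutation p = 0.67) and without GAL 1 -0.07 (p = 0.035, adjusted 0.21), while the difference with galinex was 0.00 and became 0.04 without GAL 1. Of the 12 tests 0 passed the adjusted threshold of 0.05, and the smallest p that the 400 arrangements of these tests can give is 0.005. A contrast of 3 libraries against 3 alone cannot go below 0.10.

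The 15 ribosomal RNA and protein-coding rows form 14 pairs of neighbours, and each pair was described by the log2 ratio of its counts per kb. Averaged over libraries, the ratio ran from -4.36 for mt-Rnr1 to mt-Rnr2 up to 3.23 for mt-Co2 to mt-Atp8. It was steadiest for mt-Co1 to mt-Co2, at 1.09 with an SD within groups of 0.04, and least steady for mt-Rnr1 to mt-Rnr2, with an SD of 0.32. Of the 14 pairs, 4 differed between libraries with and without cytokines at an adjusted p of at most 0.05 (two-sided exact permutation test within the galinex strata, Benjamini-Hochberg adjustment over 28 tests), each at an exact p of 0.005. In the replicate block, which pairs libraries of the same number, 0 passed, since each of the 4 pairs had an exact p of 0.0312 (adjusted 0.146), the smallest that its 64 arrangements can give. At this p, 32.0% of the ratios between neighbouring tested nuclear genes differed with cytokines, and 56.5% of those between neighbouring nuclear genes with at least the mean count of mt-Atp8. The number of MT pairs is thus near or below the background, and the 4 pairs are given as a description of where the MT genes differed.

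At an unadjusted p of at most 0.05, 6 of the 14 pairs differed with cytokines, where 51.3% of the nuclear ratios did, and 74.2% of those between the more abundant nuclear genes. With galinex 0 pairs passed the adjusted threshold, and 0 had an unadjusted p of at most 0.05, where 5.47% of the nuclear ratios did, and 8.49% of those between the more abundant nuclear genes. In the replicate block the ratio of mt-Nd4l to mt-Nd4 also differed by 0.10 with galinex at an exact p of 0.0312 (adjusted 0.146), against 0.09 (adjusted 0.315) without the block.

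mt-Nd4l (ENSRNOG00000031053) and mt-Nd4 (ENSRNOG00000029707) overlap and are read from the same message. Their log2 ratio was -1.37, -1.23 and -1.11 in CTL and -1.26, -1.16 and -1.07 in GAL. It was -0.98, -0.79 and -0.92 in CTK-2 and -0.76, -0.73 and -0.82 in CTK2+GAL. All 6 libraries with cytokines lay above all 6 without. The ratio rose by 0.37 with cytokines, 0.34 without galinex and 0.40 with it (exact permutation p = 0.005, the smallest that the arrangements can give, adjusted 0.035).

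mt-Atp8 (ENSRNOG00000033299) and mt-Atp6 (ENSRNOG00000031979), the other overlapping couple on a shared message, changed in the same direction. Their log2 ratio was -3.06, -3.23 and -3.03 in CTL and -3.21, -3.13 and -3.00 in GAL. It was -2.78, -2.88 and -2.85 in CTK-2 and -2.76, -2.72 and -2.82 in CTK2+GAL, again with all 6 above all 6. The ratio rose by 0.31 with cytokines, 0.27 without galinex and 0.35 with it (exact permutation p = 0.005, adjusted 0.035). On its other side, the log2 ratio of mt-Co2 to mt-Atp8 was 3.32, 3.38 and 3.26 in CTL and 3.62, 3.50 and 3.19 in GAL. It was 3.14, 3.15 and 3.09 in CTK-2 and 3.11, 2.96 and 3.11 in CTK2+GAL. This ratio fell by 0.28 with cytokines (exact permutation p = 0.005, adjusted 0.035), with all 6 libraries below all 6. These 2 pairs share mt-Atp8 and are not independent.

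Both short rows of the overlapping couples thus gained relative to the longer row after them. mt-Nd3, which shares no base with another row, gave a ratio of mt-Co3 to mt-Nd3 that differed by -0.03 between libraries with and without cytokines (exact permutation p = 0.71). The difference was 0.08 without galinex and -0.13 with it, so the sign differed between the strata. The counts of all 3 rows may leave out pairs that reach into an adjoining row, and the part of this in these differences was not tested.

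The last of the 4 pairs was mt-Nd1 (ENSRNOG00000030644) to mt-Nd2 (ENSRNOG00000031033), which are separated by 3 transfer RNAs and do not overlap. Their log2 ratio was 0.45, 0.47 and 0.54 in CTL and 0.79, 0.47 and 0.39 in GAL. It was 0.27, 0.22 and 0.34 in CTK-2 and 0.31, 0.33 and 0.34 in CTK2+GAL. All 6 libraries with cytokines lay below all 6 without, and GAL 1 was the farthest. The ratio fell by 0.22 with cytokines (exact permutation p = 0.005, adjusted 0.035), and by 0.16 without GAL 1 (p = 0.005, adjusted 0.035).

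**Figure D4:**
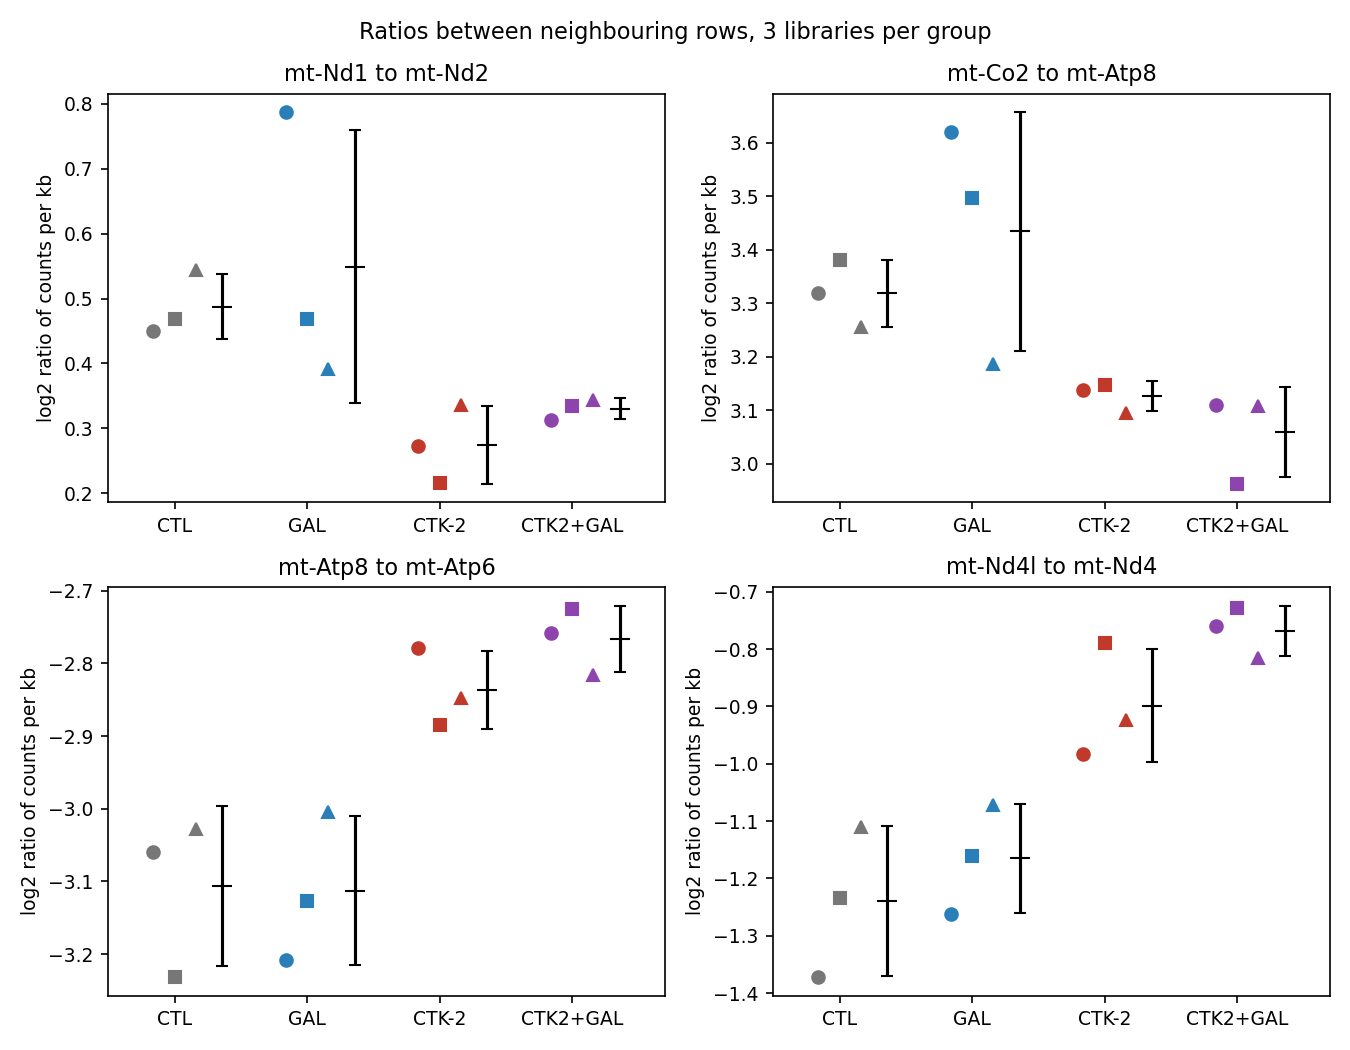
Log2 ratio of counts per kb (vertical axis) in each library for the 4 neighbouring pairs that differed with cytokines, by group, with circles, squares and triangles for replicates 1, 2 and 3 and the mean with SD (n = 3) at the right of each group. In each panel the 6 libraries with cytokines lie on one side of the 6 without.

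The calls on these pairs depended on which libraries were kept. The same 4 pairs passed without any single one of CTL 1, CTL 2, CTL 3, GAL 1, GAL 3, CTK-2 1 and CTK-2 3. With any of the CTK2+GAL libraries left out 0 of the 4 pairs passed the adjusted threshold, although the differences kept their signs and sizes, such as 0.36 to 0.38 for mt-Nd4l to mt-Nd4. The exact permutation p was then 0.005 (adjusted 0.07) for mt-Atp8 to mt-Atp6 and for mt-Nd4l to mt-Nd4. This is the smallest that the 200 arrangements can give. It was 0.01 for mt-Nd1 to mt-Nd2 and 0.015 to 0.02 for mt-Co2 to mt-Atp8. Without CTK-2 2, 3 pairs passed and mt-Nd4l to mt-Nd4 did not, with a difference of 0.34. Without GAL 2, 5 pairs passed, among them mt-Nd3 to mt-Nd4l with -0.29. Without CTL 3 and GAL 3 together, a choice made after seeing the data, the difference of mt-Nd4l to mt-Nd4 was 0.42 and that of mt-Atp8 to mt-Atp6 was 0.35. The exact test cannot then go below 0.01, and 0 pairs passed. None of these differences exceeded the fold change threshold used for single genes.

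The other 10 pairs gave differences with cytokines between -0.23 for mt-Nd3 to mt-Nd4l and 0.20 for mt-Nd6 to mt-Cyb, with overlapping libraries. Of these, mt-Nd3 to mt-Nd4l had an exact p of 0.025 (adjusted 0.14) and mt-Rnr2 to mt-Nd1, with a difference of 0.15, an exact p of 0.035 (adjusted 0.163). The ratio of 12S to 16S was -4.23, -4.29 and -3.87 in CTL and -3.90, -4.97 and -4.30 in GAL. It was -4.29, -4.53 and -4.51 in CTK-2 and -4.22, -4.51 and -4.68 in CTK2+GAL. The difference with cytokines was -0.20 (exact permutation p = 0.30), smaller than the SD within groups of 0.32. It depended on single libraries, being -0.08 without GAL 1 and -0.35 without GAL 2 (exact permutation p = 0.035, adjusted 0.109). With galinex, the 14 differences lay between -0.14 and 0.10.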

How the data were processed

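The authors' deposited files hold counts, whole read pairs per gene and library, neither normalized nor filtered. Per the file headers they come from featureCounts 2.0.0 on exons of Ensembl release 112 for mRatBN7.2, strand-specific. The settings leave out pairs that map to several places and reads marked as duplicates, and assign no pair to several genes. Per the labels, alignment was by STAR. Neither the labels nor the file headers say whether duplicates had been marked before counting. The part of duplicate removal in the levels was not tested. Of 30562 rows, 13348 averaged 5 counts or more a library over all 12 and were tested.

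edgeR 4.0.16 (with limma 3.58.1, R 4.3.3) was fitted to all 12 libraries with a mean for each group and TMM normalization. Its quasi-likelihood test was adjusted by Benjamini-Hochberg over all genes tested. A call needed a log2 fold change of 0.59 or more in either direction, with an adjusted p no higher than 0.05. DESeq2 1.42.0 was the alternative. Shares and ratios within a library were computed with Python 3.11.15, numpy 2.4.6, pandas 2.3.3 and scipy 1.17.1 and tested by two-sided exact permutation of libraries within strata. Figures were drawn with matplotlib 3.10.9. The methods were tested on simulated data.

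The gene symbols of the MT rows were assigned by order, length and strand. Lists of nuclear subunits, of mitochondrial RNA machinery and of cell type markers were not analysed here, because the tables used give identifiers without symbols. The rule for the MT rows uses no measured value, but the members and lists were chosen with earlier results of these data known. As a background for the neighbour ratios, ratios between neighbouring tested nuclear genes, ordered by start on each chromosome, were tested in the same way, a step added after the MT ratios had been seen. Alternatives were DESeq2 size factors, total counts, nuclear rows only for scaling, no filter on low counts, filterByExpr, the groups of a contrast alone, no fold change threshold, a replicate block and each library left out.

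Deviations from the group mean correlated across 7938 genes by 0.55, 0.58 and 0.85 between CTL and GAL libraries of the same number, and by -0.10 to 0.16 between all other libraries of the same number. CTL 1 also correlated with GAL 2, by 0.58, and CTL 2 with GAL 1, by 0.39. Genes are not independent replicates. What the number stands for is not stated, and it was not used as a term, except in the replicate block.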

Additional observations from a re-analysis of the deposited data

How the results depend on the processing

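The number of MT genes called in each of the 5 contrasts was 0 in edgeR and stayed 0 in all 89 values from alternative fits, DESeq2 and each left-out library included. Of the log2 fold changes of single genes, none of them called, 130 values had the opposite sign with 1 library left out and 46 under the other alternatives. With 1 library left out, the median over the tested MT genes changed sign in 4 contrasts. It ran from -0.08 to 0.05 in CTK-2 versus CTL, -0.05 to 0.15 in GAL versus CTL, -0.13 to 0.05 in CTK2+GAL versus GAL and -0.09 to 0.13 in the interaction. In CTK2+GAL versus CTK-2 it ran from 0.02 to 0.14.

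Without the fold change threshold, 0 MT genes passed in CTK-2 versus CTL, but 5 of 35 did when no filter on low counts was applied, against 25.8% of all genes. In CTK2+GAL versus GAL these numbers were 0 and 3 of 35, also against 25.8%, with 1 of 18 on total counts, against 38.9%, and 2 of 18 in the replicate block, against 40.5%. All lie below the shares of all genes. The cause was not tested.

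The cytokine difference in MT share was 0.01 percentage points, and -0.06 when scaled to the nuclear genes. With 1 library left out it ran from -0.09 to 0.10, and the galinex difference of 0.10 from 0.04 to 0.21. Of the 12 tests of shares and ratios, 0 passed under all alternatives run. The complex I to complex IV ratio without overlapping genes used mt-Nd1, mt-Nd2, mt-Nd3 and mt-Co2 alone. Its difference with cytokines was 0.0033 (exact permutation p = 0.94), against -0.024 with all genes. With galinex it was -0.0021 (exact permutation p = 0.975).

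Of the 14 neighbour ratios, 4 passed with cytokines. In the replicate block 0 passed, at an exact p of 0.0312 for each, the smallest that its 64 arrangements can give. With CTL 3 and GAL 3 left out, chosen after seeing the data, 0 passed. Each of the 4 pairs then had an exact p of 0.01 (adjusted 0.07), the smallest that the 100 arrangements can give. With 1 library left out, 0 to 5 passed, with 0 without each of the CTK2+GAL libraries, 3 without CTK-2 2 and 5 without GAL 2. The differences then ran from -0.26 to -0.16 for mt-Nd1 to mt-Nd2, -0.35 to -0.24 for mt-Co2 to mt-Atp8, 0.28 to 0.34 for mt-Atp8 to mt-Atp6 and 0.33 to 0.40 for mt-Nd4l to mt-Nd4. With galinex 0 passed under all of these. The planned lists of nuclear genes were not run.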

Other observations

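The levels rest on pairs assigned to a single gene, so mt-Atp8, mt-Nd4l and the other genes that share bases on a strand may be counted in part. With 3 libraries a group, the 95% intervals of some MT genes reach past 0.50 on the log2 scale, those of mt-Ts1 and mt-Tp past 1, and changes inside a gene's interval may have been missed. Transfer RNAs with a mean count below 5 allow no comparison. The meaning of the replicate numbers is not given in the labels, so whether libraries of the same number share a culture is unknown here.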
